A study of Mus musculus with 36 samples.

Results

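The livers of SJL mice before acetaminophen were compared with those of the other strains of the study, SMJ, DBA and C57, at the same time. The SJL arrays were chosen by their titles, which name the strain and the 0 h time, and number 3 of the 12 arrays at 0 h and 3 of the 36 arrays of the series. They were set against the equal-weight mean of the other 3 strains, with 3 mice each and 9 arrays in all. The study gave mice of 4 inbred strains 300 mg per kg acetaminophen by intraperitoneal injection and measured liver RNA at 0, 3 and 6 h, 3 mice per strain and time, on 1-colour Affymetrix arrays, 1 array per mouse. Its design names SJL as the resistant strain and C57B6, DBA/2 and SmJ as sensitive ones; the sample labels shorten these to C57, DBA and SMJ. All mice at 0 h, controls included, had been fasted overnight and had received no dose. No allele other than those of the strain is named, and age and sex are not given in the sources used here. Single mice are called by strain and by how the title of the array ends, as in 0hr_4.

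Inbred strains are homozygous for different alleles at many places in the genome, so their livers can hold different amounts of an RNA, or the same RNA with a different base, before any treatment. The probe sets of these arrays are groups of short oligonucleotides made to a reference sequence, and a base difference under a probe can lower its signal without any change in the amount of RNA. Acetaminophen is turned by P450 enzymes into a reactive quinone imine, which glutathione neutralises in liver cells, in part through glutathione transferases of the pi class. Glutathione in turn is built from cysteine, which the methionine cycle and the transsulfuration path supply.

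The measured quantity was the MAS5 signal of a probe set, an intensity on a linear scale, and differences are on the log2(signal + 2.77) scale, where 2.77 is the 10th percentile of all values. The median of all signals was 30.8, so signals well under it lie near the low end of the arrays and fold changes against them are understated. Over log2 signals of the genes tested, arrays of 1 strain at 0 h correlated with each other at 0.948 to 0.963, SJL arrays with arrays of another strain at 0.913 to 0.939, and arrays of different other strains at 0.902 to 0.945. The actin 3′ to 5′ ratio was 1.58 to 1.87 in SJL and 1.51 to 1.82 in the other strains. Xist, the RNA of the inactive X chromosome, stayed at or under 57.2 on its 3 probe sets in all 12 mice, while the Y-linked Eif2s3y read 236.7 or more on its brighter probe set. The dimmer probe set of Eif2s3y read 5.89 to 24.7 in the 9 mice of the other strains. Among the other 9 mice, SMJ mouse 0hr_56 stood apart for stress genes, with a Hmox1 (heme oxygenase) signal of 5481 against 447 and 561 in its strain mates, and C57 mouse 0hr_182 for serum amyloid A.

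The largest difference between SJL and the other strains was in a pi-class glutathione transferase. Of 13981 genes tested, 1689 (12.1%) differed between SJL and the mean of the others, 877 (6.27%) higher and 812 (5.81%) lower in SJL. A difference of at least 2-fold was met by 183 of the higher and 186 of the lower genes. All 3 SJL signals lay above the other 9 for 646 genes (4.62%), of which 465 passed the test, and below them for 499 genes (3.57%), of which 396 passed. The same contrast called 1316 genes (9.41%) for SMJ, 1440 (10.3%) for DBA and 1707 (12.2%) for C57, all from the same arrays. Against each of the other strains in turn, 267 genes (1.91%) differed in 1 direction from all 3, 127 higher and 140 lower. With 2 SJL mice left the totals fell to 992 without mouse 0hr_1, 1029 without mouse 0hr_2 and 1051 without mouse 0hr_4, and the genes that differed from all 3 strains to 164 without mouse 0hr_1 and 175 without mouse 0hr_2. The share called moved with the signal: 2.36% of 6523 genes with a mean signal under 100 at 0 h were higher and 2.16% lower, 8.77% and 9.12% of 6076 genes from 100 to 1000, and 13.7% and 8.47% of 1382 genes over 1000. A list of bright genes is to be read against the last shares. A share in 1 direction is to be read against the shares of that direction, and a share called either way against the 12.1%. Each test is limma's, with Benjamini-Hochberg adjusted p over all genes and a threshold of 0.05. The p-values rest on the spread between mice of the same group, pooled over the 12 strain-by-time groups of all 36 arrays, dosed mice included. They do not measure the spread of the 3 SJL mice at 0 h alone. When only the 12 arrays at 0 h were fitted, 1384 genes passed, of which 1142 were among the 1689.

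**Figure D1:**
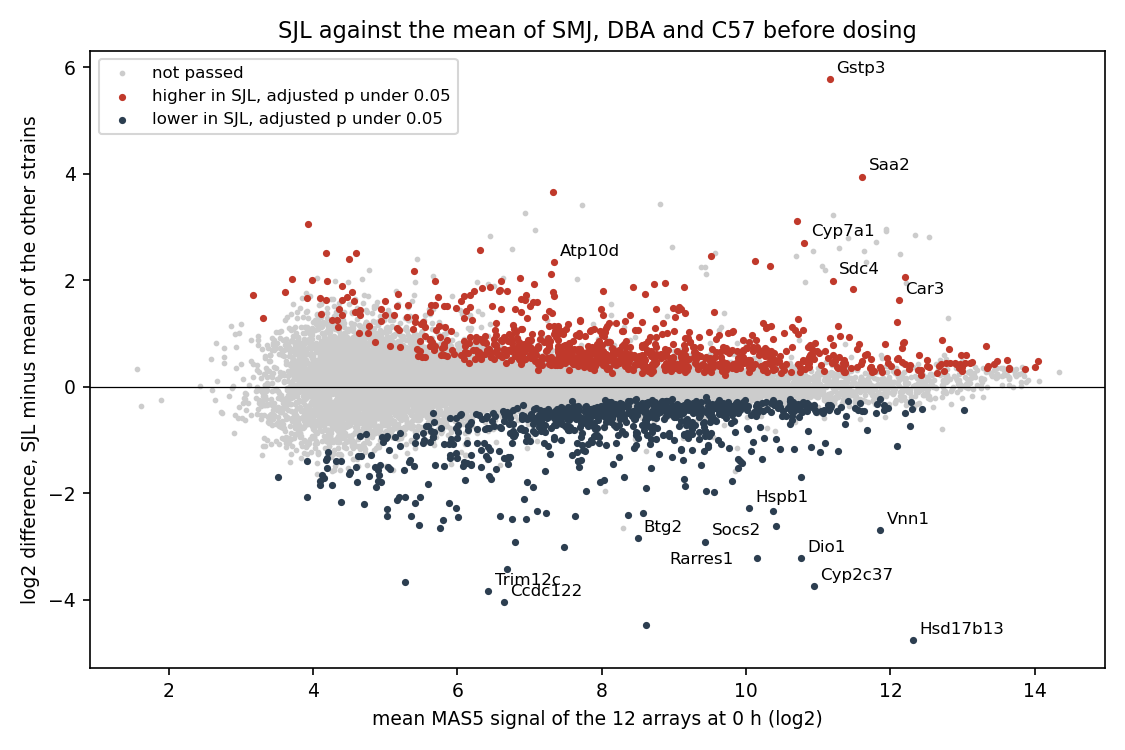
Log2 difference at 0 h, SJL minus the equal-weight mean of SMJ, DBA and C57 (vertical axis), against the mean signal of the 12 arrays (log2, horizontal axis), 1 point per gene for 13981 genes. Red and dark points are the 877 genes higher and 812 lower in SJL at an adjusted p under 0.05; Gstp3 stands highest at 5.78 and Hsd17b13 lowest at -4.75.

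Gstp3, which encodes a pi-class glutathione transferase, was the gene with the largest difference in either direction. Its signals were 8130.1, 9239 and 8728 in SJL, 145, 126 and 133 in C57, 192, 157.8 and 204 in DBA and 131, 163 and 163 in SMJ. Every SJL mouse was therefore far above every other mouse, while the other 3 strains lay close together. The difference was 5.78 (SE 0.12; 55-fold; adjusted p = 1.7e-22), and it was 5.73 in the dosed mice at 3 h and 5.51 at 6 h. Gstp3 has a single probe set here. Gstp1, the abundant pi-class transferase of mouse liver, read 12124, 16897 and 11016 in SJL, 11234, 11884 and 13104 in C57, 15327, 12966 and 15037 in DBA and 13791, 12378 and 13347 in SMJ. The groups overlapped, and the difference was -0.0057 (SE 0.12; adjusted p = 0.985). RefSeq places Gstp1, Gstp2 and Gstp3 side by side on chromosome 19, and the reference promoters of Gstp3 and Gstp1 are shown because these neighbours of 1 family differed so much in their pattern over strains. Both run 5′ to 3′ on the minus strand of GRCm38.p6, from 250 bases before to 50 bases after the start of the gene, at chr19:4059398-4059697 for Gstp3 and chr19:4037863-4038162 for Gstp1. Capitals mark the letters TATAAGG, a variant of the TATA box, and TGAGTCA, the AP-1 element, searched on both strands, where in Gstp1 the matches to TATAAGG on both strands overlap.
Gstp3: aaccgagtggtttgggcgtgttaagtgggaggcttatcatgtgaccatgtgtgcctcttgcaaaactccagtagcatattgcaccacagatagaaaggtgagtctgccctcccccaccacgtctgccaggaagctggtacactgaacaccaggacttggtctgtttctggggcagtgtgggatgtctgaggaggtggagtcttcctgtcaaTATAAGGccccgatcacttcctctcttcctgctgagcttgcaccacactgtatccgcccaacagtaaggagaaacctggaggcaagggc
Gstp1: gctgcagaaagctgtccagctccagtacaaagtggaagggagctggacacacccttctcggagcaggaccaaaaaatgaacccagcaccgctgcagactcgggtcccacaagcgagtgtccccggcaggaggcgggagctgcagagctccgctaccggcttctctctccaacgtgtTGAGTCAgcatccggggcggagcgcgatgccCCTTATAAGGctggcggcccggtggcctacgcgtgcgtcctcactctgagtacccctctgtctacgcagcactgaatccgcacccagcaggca
TATAAGG stood in both windows and in 2.17% of the 32851 mouse promoters of the same length. TGAGTCA stood in the window of Gstp1, as it did in that of Gstp2, and in 5.20% of all promoters, and its letters were not in the Gstp3 window. These are the letters of the reference genome, not of SJL.

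Other genes higher in SJL than in every other mouse had lower folds. Sdc4 encodes syndecan-4, a heparan sulfate proteoglycan of the cell surface. Its signals were 5315, 5995 and 4789.8 in SJL, 1356, 1194 and 1713 in C57, 1027, 1360.1 and 1205 in DBA and 1514, 1433 and 1386 in SMJ. No other mouse reached an SJL value; the difference was 1.99 (SE 0.11; adjusted p = 8.89e-13) on this probe set and -0.27 (adjusted p = 0.632) on a dimmer further one, where the groups overlapped. Car5a, the mitochondrial carbonic anhydrase that supplies bicarbonate for urea and glucose synthesis, read 1028, 729 and 1049.5 in SJL, 214, 292 and 107 in C57, 340.1, 243 and 307 in DBA and 239.5, 270.2 and 251 in SMJ. SJL lay above all others, by 1.92 (SE 0.25; adjusted p = 6.5e-06). Fhit, which hydrolyses diadenosine triphosphate, read 309, 264 and 334 in SJL, 89.6, 73.0 and 106 in C57, 63.8, 75.02 and 71.8 in DBA and 86.4, 67.9 and 65.5 in SMJ. It too was higher in each SJL mouse than in any other, with a difference of 1.93 (SE 0.19; adjusted p = 9.61e-08).

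Transporter genes were among the same 15 largest, and others were chosen because a further probe set also passed. Slc15a4, a histidine and peptide carrier of lysosomes, read 1023, 1179 and 938 in SJL against 179.7 to 395 (median 272) in the other 9, a difference of 1.94 (adjusted p = 1.39e-06). Atp10d, a lipid flippase, read 413, 532 and 269 in SJL against 28.1 to 123 (median 76.8) in the other 9, and differed by 2.34 (adjusted p = 1.29e-07). In both genes the lowest SJL mouse was above the highest other mouse. Slc26a1, a sulfate and oxalate carrier of hepatocytes, read 823, 559 and 789 in SJL, 396, 397 and 267 in C57, 216, 184 and 217 in DBA and 76.5, 126 and 104 in SMJ, so that the other strains were spread as well, with C57 closest to SJL. Its difference from the mean was 1.87 (SE 0.19; adjusted p = 1.17e-07), and from SMJ, DBA and C57 it was 2.80, 1.79 and 1.03. Camk1d, a calcium- and calmodulin-dependent kinase, had the same order of strains, with mean signals of 525 ± 91.7 in SJL, 284 ± 48.7 in C57, 157.9 ± 27.3 in DBA and 73.8 ± 10.1 in SMJ (SD, n = 3). All 3 of its probe sets were higher in SJL, by 1.79, 1.74 and 1.37. Slc6a16, Zfp626, Nckap5, Tead2, Ccl24, Map2k6, Pdlim4 and Tcf24 complete the 15 genes with the largest positive difference outside the range of the others, from 1.99 to 2.57, and all 8 had signals of at most 324 in every SJL mouse. Of these, Tead2 lost its call without SJL mouse 0hr_1 (2.22, adjusted p = 0.0552) and Pdlim4 without SJL mouse 0hr_4 (1.87, adjusted p = 0.0509).

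**Figure D2:**
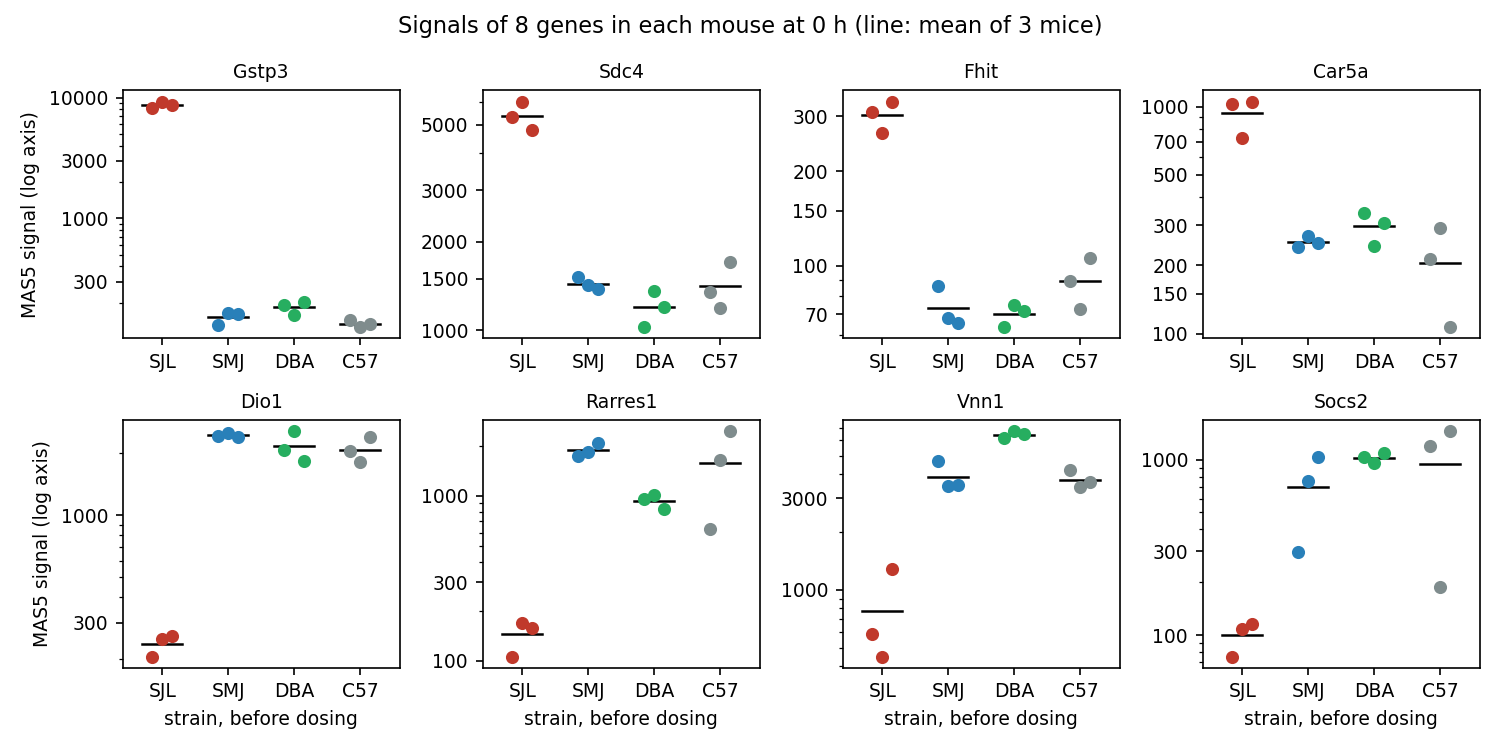
MAS5 signals (log axis) of 8 genes in each of the 12 mice at 0 h, by strain; points are mice and lines the mean of 3 mice. The 3 SJL points lie above the other 9 for Gstp3, Sdc4, Fhit and Car5a and below them for Dio1, Rarres1, Vnn1 and Socs2.

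Dio1, Vnn1 and Rarres1 were among the 15 genes with the largest negative difference outside the range of the others. Dio1, the deiodinase that makes active thyroid hormone from thyroxine, read 205, 249.9 and 257 in SJL, 2052, 1809.9 and 2394 in C57, 2089, 2562 and 1841 in DBA and 2441, 2506 and 2402 in SMJ. The ranges did not come near each other, and the difference was -3.21 (SE 0.18; adjusted p = 1.71e-12). Vnn1, the pantetheinase vanin-1 and a target of PPARA, the fatty acid receptor of hepatocytes, read 585, 448 and 1281 in SJL, 4203, 3425 and 3634 in C57, 6144, 6691 and 6449 in DBA and 4692, 3453 and 3510.0 in SMJ. SJL was lowest and DBA highest; the difference was -2.70 (SE 0.34; adjusted p = 4.71e-06), and -2.89 on a further probe set. Rarres1, a gene induced by retinoic acid, read 106, 170.3 and 158.9 in SJL, 633, 1643 and 2461 in C57, 959, 1017 and 833 in DBA and 1735, 1833 and 2085 in SMJ. It differed by -3.21 (SE 0.32; adjusted p = 1.11e-07), although C57 mice spread over a wide range.

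Socs2, the inhibitor of growth hormone signalling, read 75.4, 109 and 116 in SJL, 1192, 187 and 1451 in C57, 1037, 959 and 1089.6 in DBA and 299, 760.0 and 1035 in SMJ. SJL lay below all others, but C57 mouse 0hr_181 and SMJ mouse 0hr_56 were far under their strain mates. The difference was -2.91 (SE 0.45; adjusted p = 7.91e-05). Igf1, the growth factor that growth hormone induces, was lower by a smaller amount, -0.41 (SE 0.07; adjusted p = 0.000163), with 3912, 4322 and 3811 in SJL against 4216 to 6075 (median 5346) in the other 9. Btg2, an antiproliferative gene and a target of p53, read 44.6, 51.6 and 46.7 in SJL, 566, 326 and 699 in C57, 172, 195 and 156 in DBA and 1447, 325 and 304 in SMJ. The SJL mice were close to each other and below the rest, the difference was -2.84 (adjusted p = 1.29e-07) and -2.60, adjusted p = 1.9e-10 without SMJ mouse 0hr_56, and a further probe set gave -0.97. Itih5, an inter-alpha-trypsin inhibitor heavy chain, was lower on all 3 of its probe sets, by -2.34, -1.38 and -1.95, with main signals of 21.3, 48.4 and 29.7 in SJL against 134 to 222 (median 164) in the other 9.

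Some of the largest negative differences rest on signals at the low end of the arrays. Ccdc122 read 9.13, 0.79 and 7.86 in SJL against 78.8 to 262 (median 124) in the other 9 and differed by -4.04 (adjusted p = 3.13e-08). Trim12c, a member of the TRIM family, read 3.596, 5.67 and 2.81 in SJL, 53.2, 39.3 and 58.8 in C57, 217, 222 and 197 in DBA and 46.9, 94.8 and 92.5 in SMJ, a difference of -3.83. Its further probe set, itself dim, differed by 0.05 (adjusted p = 0.969). Prps1l3 differed by -2.40 on the probe set used and by -0.32 (adjusted p = 0.307) on a brighter one shared with related sequences. Akr1e1, Treml4, Mme, Camk2b, Zfp748 and Dglucy, the others of the 15 largest outside the range, differed by -3.004 to -2.37, and the call of Mme was lost without SJL mouse 0hr_4 (-1.62, adjusted p = 0.167).

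Hsd17b13, a dehydrogenase of hepatocyte lipid droplets, gave opposite answers on its 2 probe sets. On the brighter one the signals were 295, 232 and 209 in SJL, 6687, 5520.3 and 6256 in C57, 6198, 6412 and 6987 in DBA and 8715, 6732 and 6573 in SMJ. On the other they were 1289, 1498 and 999.6 in SJL, 63.7, 47.3 and 50.3 in C57, 53.0, 29.8 and 50.9 in DBA and 53.5, 43.3 and 19.1 in SMJ. SJL was below every mouse on the first, by -4.75 (SE 0.19; adjusted p = 5.05e-16), and above every mouse on the second, by 4.75 (SE 0.33; adjusted p = 8.78e-11). Both differences repeated in the dosed mice, at -5.70 (3 h) and -4.93 (6 h) on the brighter probe set and 4.49 and 4.37 on the other. The mean over both probe sets showed no difference, but the 2 opposite values cancel in it, so nothing is read from that mean. Whether the total amount of Hsd17b13 RNA differed was therefore not measured.

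Of the 1689 genes that differed, 905 had at least 1 further probe set tested. A further probe set passed in the same direction for 330 of these (36.5%) and in the opposite direction for 26, with 7 genes in both counts. That share is per gene, and a gene can have several further probe sets. It is therefore unlike the share per probe set, which was 10.8% over all 25330 probe sets with a single gene symbol. Of the 1692 further probe sets, 1297 (76.7%) had the sign of the first and 27.4% passed, against 6.87% of the further probe sets of genes that did not differ. The 330 fell to 213 when only the 12 arrays at 0 h were fitted, and to 154, 183 and 184 without SJL mouse 0hr_1, 0hr_2 and 0hr_4. The 26 fell to 14 in that fit and to 11, 9 and 10 without those mice. Base differences under the probes were not tested, since no SJL sequence was used.

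A further 3 genes with opposite probe sets, chosen after their values were seen, show the pattern in bright signals. Uqcr10, a subunit of respiratory complex III, read 3352, 3599.7 and 2952 in SJL, 2692, 2553 and 2374 in C57, 2350.4, 2342 and 2164 in DBA and 2509, 2437 and 2534 in SMJ on its brightest probe set. On another it read 33.1, 35.8 and 22.7 in SJL, 737, 696 and 758 in C57, 565, 625 and 586 in DBA and 837, 805 and 882 in SMJ. SJL was highest on the first, by 0.43 (adjusted p = 0.00382), and lowest on the second, by -4.45 (adjusted p = 2.38e-14). Qprt, which makes the NAD precursor nicotinate mononucleotide, was higher on one probe set (0.84) and lower on the other (-1.46), with SJL outside the range of the others on both. Cfl2, an actin-severing cofilin, was higher on its brightest probe set (0.49) and lower on another (-1.53).

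**Figure D3:**
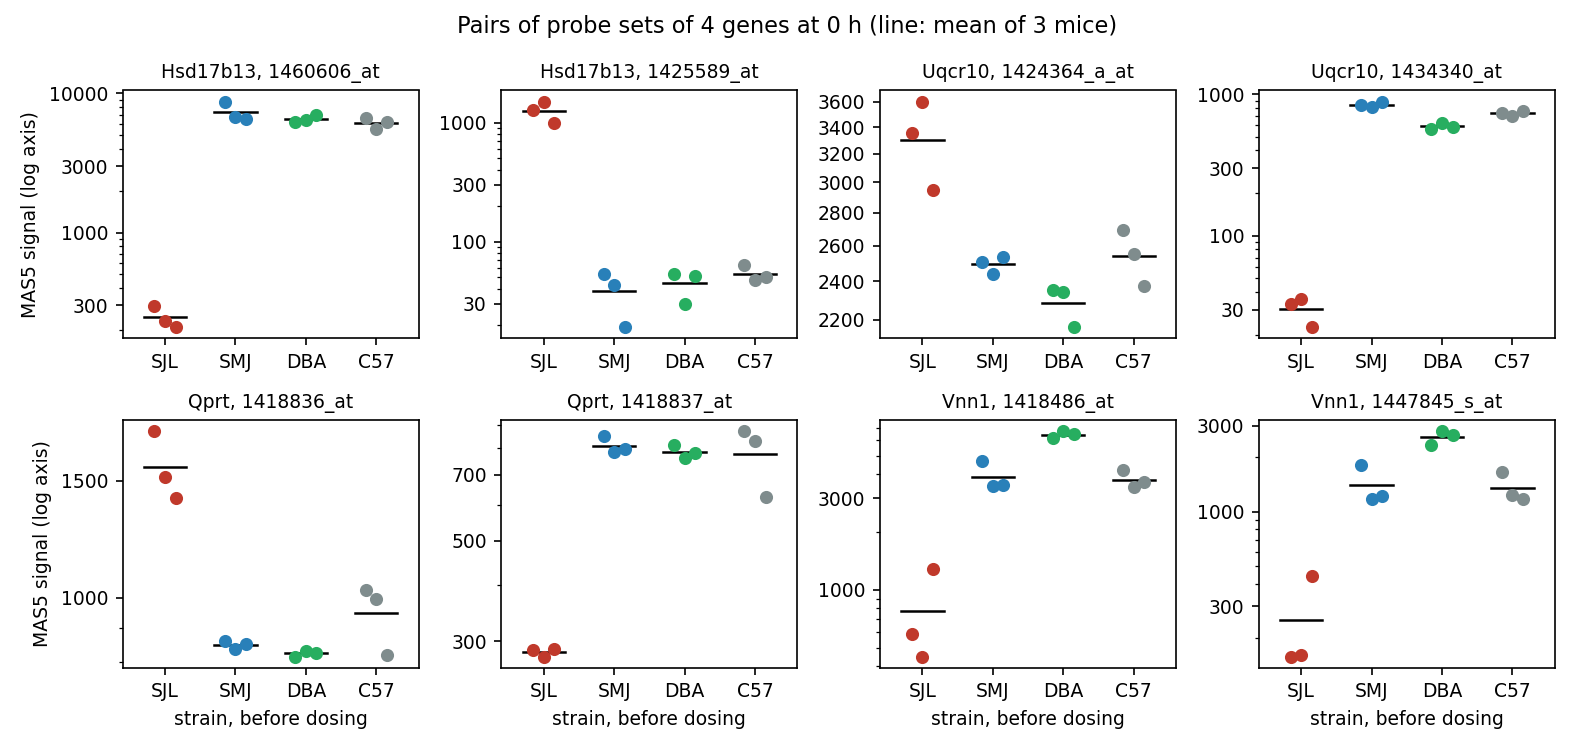
MAS5 signals (log axes that do not start at 0 and differ in range) of pairs of probe sets of Hsd17b13, Uqcr10, Qprt and Vnn1 in each mouse at 0 h; points are mice and lines the mean of 3 mice. In Hsd17b13, Uqcr10 and Qprt the SJL points lie on opposite sides of the other 9 in the 2 probe sets, and in Vnn1 they lie below on both.

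For some genes the other strains differed widely among themselves. Cyp2c37, a P450 of pericentral hepatocytes, read 60.4, 28.8 and 47.8 in SJL, 1790.3, 3486 and 3696 in C57, 4913, 3758 and 5756 in DBA and 3.72, 27.98 and 26.7 in SMJ. SJL and SMJ were both near the low end and DBA and C57 far above, so that the difference from the mean (-3.75; adjusted p = 4.54e-08) held 1.37, -6.67 and -5.94 against SMJ, DBA and C57. Cyp2c23, an epoxygenase of arachidonic acid, had mean signals of 4691 ± 120.3 in SJL, 2380.0 ± 182.4 in C57, 229.8 ± 26.6 in DBA and 4114 ± 63.9 in SMJ (SD, n = 3), and differed by 0.19, 4.34 and 0.98 from SMJ, DBA and C57. Cyp2c39 had mean signals of 2082 ± 506 in SJL, 93.4 ± 12.4 in C57, 367 ± 94.5 in DBA and 1909 ± 745 in SMJ (SD, n = 3), and SJL and SMJ overlapped. Alad, the heme synthesis enzyme whose copy number is known to vary between strains, read 2704, 2532 and 2697 in SJL, 797, 1139.6 and 683 in C57, 2845, 2652 and 2607 in DBA and 756, 878 and 998 in SMJ. SJL and DBA overlapped and SMJ and C57 were lower, a difference from the mean of 1.07 (adjusted p = 0.000112). Lpin1, a phosphatidate phosphatase, had mean signals of 1968 ± 995 in SJL, 6735 ± 1588 in C57, 75.6 ± 6.45 in DBA and 1142 ± 392.04 in SMJ (SD, n = 3), with C57 above and DBA far below SJL. Its call was lost without SJL mouse 0hr_2 (0.75, adjusted p = 0.103). Rassf4 and Dusp8, a phosphatase of MAP kinases, had mean signals of 33.3 ± 9.49 in SJL, 30.9 ± 8.18 in C57, 1307 ± 302 in DBA and 147 ± 55.5 in SMJ (SD, n = 3) and of 7.65 ± 3.62 in SJL, 49.8 ± 19.4 in C57, 10.4 ± 6.16 in DBA and 186 ± 29.9 in SMJ (SD, n = 3), so that Rassf4 was high in DBA and Dusp8 in SMJ, while SJL overlapped with C57 in Rassf4 and with DBA in Dusp8. Of 32 genes listed as known to differ between inbred strains, 8 were higher and 3 lower in SJL (34.4% called), with 1 lower without SJL mouse 0hr_4. The share called was 12.1% over all genes and 22.2% over those with a mean signal over 1000, as 12 of the 32 had.

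Of 19 genes tested that handle acetaminophen itself, 1 was higher and 2 lower (15.8% called, where 12.1% of all genes were). Among the 19, 17 had a mean signal over 1000, where 22.2% of genes were called. The median difference was 0.07 where the median of all genes was 0.04 (-0.04 and 0.01 after quantile normalization). Cyp2d22 was higher in all 3 SJL mice than in any other (2793, 2639 and 2525 in SJL against 1224 to 2117 (median 1638) in the other 9; 0.75, adjusted p = 0.000166). Cyp2e1, the main activating P450, read 13312, 19704 and 15996 in SJL, 11964, 12325 and 14135 in C57, 19792, 15175 and 18959 in DBA and 15552, 13574 and 13499.5 in SMJ. Its groups overlapped, and the difference was 0.13 (SE 0.17; adjusted p = 0.719), with the sign turned after quantile normalization (-0.14, adjusted p = 0.578). Abcc2, which exports conjugates into bile, had mean signals of 324 ± 15.4 in SJL, 1049.8 ± 173 in C57, 639 ± 157 in DBA and 318 ± 39.5 in SMJ (SD, n = 3), and SJL and SMJ overlapped. The call (-0.86) was lost without SJL mouse 0hr_4 (-0.84, adjusted p = 0.0514). Ugdh, which makes the sugar donor of glucuronidation, was lower by -0.33 (adjusted p = 0.0376), a call lost without SJL mouse 0hr_1 (-0.26, adjusted p = 0.232) or 4, SMJ mouse 0hr_57 or 0hr_58, DBA mouse 0hr_114 or 0hr_115, or C57 mouse 0hr_181. Without SJL mouse 0hr_4 none of the 19 was lower. Of 20 glucuronidation and sulfation enzymes 2 were higher and 3 lower (0 higher without SJL mouse 0hr_2, 1 higher without SJL mouse 0hr_1 or 0hr_4, DBA mouse 0hr_114, or C57 mouse 0hr_180 or 0hr_181, and 1 lower without SJL mouse 0hr_1). In all 25% were called, and 12 of the 20 had a mean signal over 1000, where 22.2% of genes were called. Ugt3a1 was lower in each SJL mouse (395, 352 and 550.2 in SJL against 918 to 1508 (median 1131) in the other 9; -1.43, adjusted p = 9.95e-07).

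Of 18 genes of the methionine cycle 3 (16.7%) were higher and 0 lower, where 6.27% of all genes were higher and 12.1% were called either way. Among the 18, 13 had a mean signal over 1000, where 13.7% of genes were higher, a share near that of the list. At an unadjusted p under 0.05, 9 were higher and 0 lower. Without SJL mouse 0hr_2 or 0hr_4, 1 was higher, a share near that of all genes. Positive differences were found in 17 of the 18 (median 0.31, and 0.19 after quantile normalization). Gnmt, which uses up S-adenosylmethionine, read 12599.9, 17356 and 14229 in SJL, 8755, 8766 and 10294 in C57, 10239, 8508 and 10620.0 in DBA and 8330.1, 6572 and 6512 in SMJ. Each SJL mouse was above every other, by 0.76 (SE 0.14; adjusted p = 0.000475). Bhmt, the betaine-homocysteine methyltransferase, read 17869.8, 21544 and 19561 in SJL, 12755, 14142 and 15694 in C57, 19183, 15718 and 18042 in DBA and 16647, 12803 and 12449 in SMJ. The groups overlapped; the difference was 0.38 (adjusted p = 0.0485), and 0.084, adjusted p = 0.559 after quantile normalization, and the call was lost on leaving out SJL mouse 0hr_1, 0hr_2 or 0hr_4 (0.44, adjusted p = 0.07, 0.31, adjusted p = 0.233, and 0.38, adjusted p = 0.133). Leaving out SMJ mouse 0hr_57 or 0hr_58, DBA mouse 0hr_114 or 0hr_115, or C57 mouse 0hr_180 or 0hr_181 also ended it. Bhmt2, its paralogue, read 1522, 1702 and 1844 in SJL, 1266, 1336 and 1397 in C57, 1597, 1439 and 1441 in DBA and 1982, 1160.2 and 1209 in SMJ. It did not pass, at 0.26 (SE 0.16; adjusted p = 0.336).

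Of 19 genes of transsulfuration and cysteine use, 5 (26.3%) were higher and 1 lower, with 3 higher without SJL mouse 0hr_1, 0hr_2 or 0hr_4. Higher genes were 6.27% of all and 13.7% of those with a mean signal over 1000, as 11 of the 19 had. Cth, which releases cysteine from cystathionine, and Cbs, which makes cystathionine, had mean signals of 9933 ± 2498 in SJL, 7818 ± 1153 in C57, 3658 ± 637 in DBA and 5476 ± 1545 in SMJ (SD, n = 3) and of 1482 ± 209.9 in SJL, 1174 ± 394 in C57, 714 ± 71.9 in DBA and 999 ± 76.2 in SMJ (SD, n = 3). Their differences were 0.87 and 0.66; Cth lost its call without SJL mouse 0hr_2 (0.68, adjusted p = 0.0574) and Cbs without SJL mouse 0hr_1 (0.55, adjusted p = 0.0729). For glutathione synthesis, the modifier subunit Gclm was higher (2199.9, 1931 and 2117 in SJL against 1320.3 to 1921 (median 1550.4) in the other 9; 0.42, adjusted p = 0.00274), the catalytic subunit Gclc did not pass (1668 ± 53.5 in SJL, 1072 ± 266 in C57, 2468 ± 417 in DBA and 3975 ± 844 in SMJ (SD, n = 3); -0.37, adjusted p = 0.211), and the synthetase Gss was lower in each SJL mouse (456, 429.5 and 457 in SJL against 547 to 659 (median 629) in the other 9; -0.44, adjusted p = 0.00564), although not as a mean over its probe sets (-0.24, adjusted p = 0.148). Among 19 glutathione transferases, a list that does not hold Gstp3, 2 were higher and 1 lower (15.8% called). The share called was 12.1% over all genes and 22.2% over those with a mean signal over 1000, as 10 of the 19 had. Gstk1, the mitochondrial and peroxisomal kappa form, read 4326, 4089 and 4309 in SJL, 3157, 2367 and 2368 in C57, 1858, 1827 and 1758 in DBA and 2223, 2152 and 2478 in SMJ. It lay above all others, by 0.94 (SE 0.09; adjusted p = 8.7e-08), while Gsta2, an alpha form, was lower (516, 613 and 385 in SJL against 716 to 2752 (median 968) in the other 9; -1.20).

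Targets of NRF2, the factor that answers oxidants, were 1 higher and 3 (13.6%) lower of 22. Lower genes were 5.81% of all and 8.47% of those with a mean signal over 1000, as 9 of the 22 had. In all 18.2% were called, where 12.1% of all genes were. Srxn1, sulfiredoxin, read 190.5, 159.9 and 210.3 in SJL, 443, 401 and 334 in C57, 267, 291 and 279 in DBA and 1559.8, 639.9 and 559 in SMJ. SJL was lowest, and the difference was -1.26 (adjusted p = 0.00211) and -1.10, adjusted p = 0.00213 without SMJ mouse 0hr_56. Ces1g was lower by -1.73. Nqo1 (-0.43; adjusted p = 0.307) and Hmox1 (0.14; adjusted p = 0.877) did not pass; the sign of Nqo1 turned without SJL mouse 0hr_4 (0.046, adjusted p = 0.944). Of 47 P450 genes of families 1 to 4, 9 were higher and 4 lower (27.7% called), and the 9 became 4 without SJL mouse 0hr_2. The share called was 12.1% over all genes and 22.2% over those with a mean signal over 1000, as 24 of the 47 had. Of 42 carboxylesterases, aldo-keto and aldehyde enzymes, 6 were higher and 4 lower (2 lower without SJL mouse 0hr_1, 0hr_2 or 0hr_4). In all 23.8% were called, and 24 of the 42 had a mean signal over 1000. Among those called were Akr1c19 at -1.48 and Aldh1l1, a folate enzyme, at 0.60. As a mean over its probe sets Aldh1l1 did not pass (0.15, adjusted p = 0.632).

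Many plasma protein genes of the liver were higher in SJL. Of 40 complement and clotting genes, 23 (57.5%) were higher and 0 lower, where 6.27% of all genes were higher and 13.7% of those with a mean signal over 1000, as 34 of the 40 had (26 and 0 at an unadjusted p under 0.05), and 37 of the 40 differences were positive (median 0.36); after quantile normalization 19 were higher, without SJL mouse 0hr_2 15 and without SJL mouse 0hr_4 13. C2, a protease of the classical complement path, read 1444, 1459 and 1449 in SJL, 792, 719.9 and 867 in C57, 677, 744 and 857 in DBA and 1141, 1186 and 1058 in SMJ. SJL was above all others, by 0.73 (SE 0.10; adjusted p = 9.35e-06). Masp1, a protease of the lectin path, was also above all others (1747, 1657 and 1437 in SJL against 741 to 1188 (median 902) in the other 9; 0.74). Hc, complement C5, had mean signals of 6091 ± 564 in SJL, 5314 ± 924 in C57, 1955 ± 275 in DBA and 4899 ± 188 in SMJ (SD, n = 3), and differed by 0.72 from the mean and by 0.31, 1.64 and 0.21 from SMJ, DBA and C57. F7, clotting factor VII, was higher by 0.50, and by 0.10, 0.58 and 0.82 against SMJ, DBA and C57 in turn.

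Of 24 acute phase genes, 6 (25%) were higher and 0 lower (14 and 1 at an unadjusted p under 0.05). Higher genes were 6.27% of all and 13.7% of those with a mean signal over 1000, as 17 of the 24 had. The 6 became 2 without SJL mouse 0hr_2, 3 without SJL mouse 0hr_4 and 11 without C57 mouse 0hr_182, and 1 was lower without DBA mouse 0hr_113. Lbp, which binds bacterial lipopolysaccharide, read 6877, 8267 and 7188 in SJL, 3275, 2595 and 2981 in C57, 2248, 3101 and 2428 in DBA and 4934, 4269 and 4075 in SMJ. SJL was above all others, by 1.21 (SE 0.12; adjusted p = 7.92e-08), and on a further, dimmer probe set by 3.78. Saa2, serum amyloid A, read 4221, 10541 and 7741 in SJL, 414, 933 and 11958 in C57, 167, 642 and 156 in DBA and 395, 186 and 138 in SMJ. All SJL mice were high, and so was C57 mouse 0hr_182, the only other mouse within the SJL range or above it; the difference was 3.94 (SE 0.86; adjusted p = 0.00288) and 4.42, adjusted p = 0.000318 without that mouse. Saa1 had the same pattern (2.05; adjusted p = 0.0427), and its call was lost when any 1 SJL mouse, SMJ mouse 0hr_57 or 0hr_58, DBA mouse 0hr_113 or 0hr_115, or C57 mouse 0hr_180 or 0hr_181 was left out, up to an adjusted p of 0.15 without SJL mouse 0hr_2. The probe sets of Saa1 and Saa2 cannot keep these near-identical genes fully apart. Of 25 apolipoprotein and lipoprotein genes 9 (36%) were higher and 0 lower (13 and 1 at an unadjusted p under 0.05). Higher genes were 6.27% of all and 13.7% of those with a mean signal over 1000, as 18 of the 25 had. Without SJL mouse 0hr_1, 0hr_2 or 0hr_4, 5 were higher, and without SMJ mouse 0hr_58 1 was lower. After quantile normalization 7 were higher and 1 lower, and the median went from 0.31 to 0.16. Scarb1, the receptor for high-density lipoprotein, was highest in each SJL mouse (3930.1, 3758 and 4040.0 in SJL against 1305 to 2559.7 (median 2188) in the other 9; 0.96, adjusted p = 1.78e-06), as was Apom (0.79).

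Of 35 fatty acid oxidation and PPARA target genes, 1 was higher and 10 (28.6%) lower, with a median of -0.14. Lower genes were 5.81% of all and 8.47% of those with a mean signal over 1000, as 28 of the 35 had. The 10 became 7 without SJL mouse 0hr_1, the lowest count with any 1 mouse left out. Without SJL mouse 0hr_2, 0 were higher. Beside Vnn1 the lower ones were Cyp4a31 (-1.77), the lipid droplet genes Cidec and Plin2, Pdk4, Acot1, Acot2, Acot4, Eci1 (-0.50) and Decr1 (-0.40). Eci1, an isomerase of beta-oxidation, was below the other 9 in each SJL mouse (2729, 2600.2 and 2775 in SJL against 3332 to 4486 (median 3824) in the other 9; adjusted p = 0.00181). Cyp4a31 had mean signals of 230.99 ± 13.9 in SJL, 2229 ± 354 in C57, 840.2 ± 196 in DBA and 280.0 ± 71.0 in SMJ (SD, n = 3), with overlap of SJL and SMJ, and did not pass as a mean over its probe sets (-0.92, adjusted p = 0.0567). Of 23 fatty acid synthesis genes 4 (17.4%) were higher and 0 lower (6 and 0 at an unadjusted p under 0.05). Of these 23, 10 had a mean signal over 1000, where 13.7% of genes were higher. Without SJL mouse 0hr_2, 2 were higher. Srebf1, the factor that drives these genes, stood at 1.04 (adjusted p = 0.00193). Of 21 cholesterol synthesis genes none passed either way in limma's fit (5 higher and 0 lower at an unadjusted p under 0.05), 4 were higher when only the 12 arrays at 0 h were fitted, and 1 without SMJ mouse 0hr_58, DBA mouse 0hr_113, or C57 mouse 0hr_180 or 0hr_182. Of 27 genes of glucose production and use, 7 (25.9%) were higher and 1 lower (4 higher without SJL mouse 0hr_2 or 0hr_4). Higher genes were 6.27% of all and 13.7% of those with a mean signal over 1000, as 18 of the 27 had. Gcgr, the glucagon receptor, was above all others (2183, 2524 and 2128 in SJL against 1132 to 1579 (median 1463) in the other 9; 0.74, adjusted p = 2.29e-05).

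Cyp7a1, whose enzyme sets the rate at which bile acids are made, read 2818, 5014 and 4871 in SJL, 1305, 1167 and 1153 in C57, 1899, 338 and 2402 in DBA and 285, 154 and 121 in SMJ. SJL was highest and SMJ lowest, with a wide range in DBA; the difference was 2.71 (SE 0.45; adjusted p = 0.000184), and 1.97 on a further probe set. Of 27 bile acid and hepatic transporter genes 4 were higher and 1 lower (2 higher without SJL mouse 0hr_1 or 0hr_2, 0 lower without SJL mouse 0hr_4). In all 18.5% were called, where 12.1% of all genes were, and 22.2% of those with a mean signal over 1000, as 16 of the 27 had. Among 18 clock genes, 3 (16.7%) were higher and 1 lower, where 6.27% of all genes were higher (1 higher without SJL mouse 0hr_1 or 0hr_2). Hlf was above all others in SJL (439, 432 and 463 in SJL against 221 to 333 (median 245) in the other 9; 0.76) but lost its call without any 1 SJL mouse (0.76, adjusted p = 0.0683, 0.78, adjusted p = 0.0608, and 0.73, adjusted p = 0.0805), and Clock was below all others (-0.53).

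Several heat shock genes were lower in SJL. Of 29 heat shock and endoplasmic reticulum stress genes 0 were higher and 7 lower, 24.1% where 5.81% of all genes were lower (1 and 11 at an unadjusted p under 0.05; median -0.36). Hspb1, the small heat shock protein HSP25, read 194, 247 and 236.9 in SJL, 1913, 2213 and 805 in C57, 421, 967 and 322 in DBA and 1329, 1914 and 2083 in SMJ. SJL was lowest and its mice close together, while each other strain spread widely; the difference was -2.28 (SE 0.37; adjusted p = 0.000145). Hsp90aa1, an inducible HSP90, read 2529.6, 2145 and 2222 in SJL, 5408, 5458 and 4661 in C57, 3582, 5368 and 3737 in DBA and 6820.4, 5235 and 5366 in SMJ. It too was lower in each SJL mouse, by -1.12 (SE 0.18; adjusted p = 0.0001), as was Hspa8 (3017, 3416 and 3348 in SJL against 4532 to 7673 (median 5245) in the other 9; -0.75). Hsph1 was lower by -1.40, a call lost without SJL mouse 0hr_2 (-1.41, adjusted p = 0.0508) or SJL mouse 0hr_4 (-1.36, adjusted p = 0.0592). Without SMJ mouse 0hr_56 1 passed as higher. The 7 became 3 without SJL mouse 0hr_2 or 0hr_4, and 3 when all probe sets of a gene were averaged, where Hsp90aa1 and Hspa8 did not pass (-0.50, adjusted p = 0.216, and -0.38, adjusted p = 0.146). Of 28 immediate early genes 0 were higher and 3 (10.7%) lower, where 5.81% of all genes were lower. Called either way, the 10.7% was near the 12.1% of all genes. At an unadjusted p under 0.05 the counts were 0 and 7. Without SJL mouse 0hr_1, 1 was lower, and without SMJ mouse 0hr_57 5 were. Btg2 was among the 3. The other 2, Klf6 and Maff, had mean signals of 57.8 ± 10.7 in SJL, 56.5 ± 8.08 in C57, 63.3 ± 13.8 in DBA and 305 ± 29.2 in SMJ (SD, n = 3) and of 25.0 ± 5.91 in SJL, 52.0 ± 7.47 in C57, 27.01 ± 14.5 in DBA and 99.2 ± 31.8 in SMJ (SD, n = 3), were highest in SMJ, and lost their calls without SJL mouse 0hr_1 (-0.80, adjusted p = 0.0944, and -0.81, adjusted p = 0.182) or SJL mouse 0hr_2 (-0.70, adjusted p = 0.147, and -0.94, adjusted p = 0.118). Maff also lost it without SJL mouse 0hr_4, SMJ mouse 0hr_56, DBA mouse 0hr_114, or C57 mouse 0hr_180 or 0hr_182 (adjusted p of at most 0.0616 in these).

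Several markers of the sinusoidal cells of the liver were higher in SJL. Of 20 Kupffer cell and macrophage markers 9 (45%) were higher and 0 lower, where 6.27% of all genes were higher (14 and 0 at an unadjusted p under 0.05; median 0.50; 5 higher without SJL mouse 0hr_4), and their summed signal was 9335 to 10993 in SJL, 7967 to 8589 in C57, 6310 to 6844 in DBA and 5294 to 6619 in SMJ. Clec4f, the Kupffer cell lectin, read 1256, 995 and 1264 in SJL, 809.9, 712 and 907 in C57, 651, 572 and 629 in DBA and 634, 717 and 746 in SMJ. Each SJL mouse was above every other, by 0.73 (SE 0.15; adjusted p = 0.002). Csf1r, the receptor of macrophage growth factor, read 1753, 1633 and 2036 in SJL against 883 to 1468 (median 1095) in the other 9 (0.68) and Cd68 153, 126 and 167 in SJL against 58.04 to 102.97 (median 74.0) in the other 9 (0.88), again without overlap. In these bulk livers, more cells of a type and more RNA per cell cannot be told apart. Of 16 endothelial markers 5 (31.25%) were higher and 1 lower (0 lower without SJL mouse 0hr_1), with summed signals of 5832 to 6216 in SJL and 4159 to 6449 in the other strains. Stab2 and Kdr, of the sinusoidal endothelium, were higher by 0.74 and 0.97, both above all others. Differences were positive in 12 of the 16 endothelial markers. The lower one was Pecam1 (-0.56), and Lyve1 (-0.34), Cd34 (-0.33) and Oit3 (-0.08) were negative without passing. Of 16 stellate cell and fibroblast markers 4 (25%) were higher and 0 lower (7 and 0 at an unadjusted p under 0.05). Without SJL mouse 0hr_1, 2 were higher, and without SJL mouse 0hr_4 1 was. The summed signals of this list were 6325 to 7183 in SJL and 4797 to 6026 in the others. Rgs5 was higher by 0.73 (0.42, adjusted p = 0.0565 as a mean over its probe sets), while Reln (0.40) lost its call without SJL mouse 0hr_1, 0hr_2 or 0hr_4, and its sign as a mean over probe sets (-0.0074, adjusted p = 0.992).

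The complement list shares C1qa and C1qc with the macrophage list, and both were higher. Of 14 genes that define hepatocytes 5 (35.7%) were higher and 0 lower (8 and 1 at an unadjusted p under 0.05). Higher genes were 6.27% of all and 13.7% of those with a mean signal over 1000, as 13 of the 14 had. Summed signals of the 14 were 159785 to 212150 in SJL and 129777 to 172263 in the others. None passed as higher without SJL mouse 0hr_2, 2 did without SJL mouse 0hr_4 and 3 without DBA mouse 0hr_115, and after quantile normalization 3 were higher and 1 lower. A single member passed as lower without SJL mouse 0hr_1, SMJ mouse 0hr_58, DBA mouse 0hr_113 or C57 mouse 0hr_181. Albumin (Alb) read 14391, 20847 and 17499 in SJL, 10884, 11051 and 13069.7 in C57, 16519, 13175 and 16660.1 in DBA and 13719.7, 13298 and 13307 in SMJ. It did not pass (0.38; adjusted p = 0.0897). Of 19 pericentral markers 4 (21.1%) were higher and 1 lower (2 higher without SJL mouse 0hr_1 or 0hr_4, 1 without SJL mouse 0hr_2), and of 16 periportal markers 4 (25%) were higher and 1 lower (2 higher without SJL mouse 0hr_2). Mean signals were over 1000 for 9 of the pericentral and 13 of the periportal markers. The lower periportal one is Hsd17b13, whose probe sets gave opposite answers. Uroc1, a histidine-degrading enzyme of periportal cells, was above all others in SJL (1342, 821 and 992 in SJL against 232 to 489 (median 391.7) in the other 9; 1.46, adjusted p = 1.6e-05). Ass1, of the urea cycle, was called higher (1.70) on a dim probe set.

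Immune genes passed in both directions. Of 42 interferon-stimulated genes 0 were higher and 7 (16.7%) lower, where 5.81% of all genes were lower and 12.1% were called either way. At an unadjusted p under 0.05 the counts were 1 and 10, and the median was -0.32. Without SJL mouse 0hr_2, 2 were lower, and without C57 mouse 0hr_180 1 was higher. Ifi35 read 132, 117 and 125 in SJL, 239, 192 and 179 in C57, 382, 325 and 423 in DBA and 290.0, 201 and 195 in SMJ. SJL was lowest and DBA highest; the difference was -1.03 (SE 0.19; adjusted p = 0.000478). Bst2, which tethers virus particles, was below all others (455, 375 and 474 in SJL against 637 to 972 (median 742) in the other 9; -0.83), but without SJL mouse 0hr_2 it did not pass (-0.72, adjusted p = 0.0579). Of 10 class II antigen presentation genes 2 were higher and 1 lower (30% called, where 12.1% of all genes were), and none passed either way without SJL mouse 0hr_4. Cd74, the invariant chain, read 626, 729 and 1591 in SJL, 346, 591 and 440.5 in C57, 713, 386 and 470.4 in DBA and 143, 187 and 153 in SMJ. SJL mouse 0hr_4 was highest and DBA overlapped the other SJL mice; the difference was 1.43 (adjusted p = 0.00401) and 1.02, adjusted p = 0.0782 without that mouse. H2-Eb1 had the same pattern (1.35, and 0.86, adjusted p = 0.21 without it). H2-Ea, the class II gene that some haplotypes lack, read 18.5, 25.2 and 17.4 in SJL, 20.9, 24.5 and 32.5 in C57, 228, 126 and 149 in DBA and 38.2, 64.7 and 62.4 in SMJ. SJL and C57 were low, SMJ and DBA higher. Of 17 class I and antigen processing genes 2 were higher and 0 lower (3 and 2 at an unadjusted p under 0.05). The 2 were 11.8% of the list, where 6.27% of all genes were higher. Called either way, the 11.8% was near the share of all genes (12.1%). The 2 were H2-Q10 (0.71) and Tapbp (0.43), the second of which lost its call without any 1 SJL mouse (0.46, adjusted p = 0.0668, 0.45, adjusted p = 0.0733, and 0.39, adjusted p = 0.123).

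Of 48 tested markers of B cells, T and natural killer cells, neutrophils, bile duct and erythroid cells, 5 passed (10.4%), a share near that of all genes (12.1%). Of 11 B cell and plasma cell markers and 11 T cell and natural killer cell markers none passed either way in limma's fit, with 2 higher and 0 lower in each list at an unadjusted p under 0.05. Without SMJ mouse 0hr_57 1 B cell marker passed as higher, and without C57 mouse 0hr_180 2 did. The summed signal of the 18 T cell and natural killer cell markers with a probe set was 413 to 523 in SJL and 253 to 409 in the others. Summed B cell and plasma cell signals were 2826 to 3601 in SJL, 2784 to 2847 in C57, 3861 to 4436 in DBA and 3393 to 4649 in SMJ, so that SJL lay below DBA and overlapped with the others. Summed erythroid signals were 558 to 667 in SJL, 733 to 847 in C57, 1062 to 1384 in DBA and 313 to 359 in SMJ, with SJL between SMJ and C57. Of 12 neutrophil markers 2 were higher, Ngp (1.51) and S100a8 (1.98), and both lost the call without SJL mouse 0hr_2 (1.12, adjusted p = 0.113, and 1.54, adjusted p = 0.235). Summed neutrophil signals were 962 to 1710 in SJL and 370.5 to 4157 in the others. S100a8 also lost its call without SJL mouse 0hr_4 (1.95, adjusted p = 0.125), SMJ mouse 0hr_57 or 0hr_58, DBA mouse 0hr_113, or C57 mouse 0hr_180 or 0hr_181. Of 7 bile duct markers 1 was lower, Sox9 (29.6, 38.1 and 20.7 in SJL against 51.1 to 112 (median 98.6) in the other 9; -1.47, adjusted p = 0.000207), though not as a mean over its probe sets (-0.54, adjusted p = 0.25). Of 7 erythroid markers 1 was higher (2 without C57 mouse 0hr_182), Klf1 (0.97), and 1 lower, Alas2 (-0.99), whose call was lost without SJL mouse 0hr_1, 0hr_2 or 0hr_4 or DBA mouse 0hr_113, up to an adjusted p of 0.151 without SJL mouse 0hr_2. Of 21 sex-biased liver genes 2 were higher and 2 lower (0 higher without SJL mouse 0hr_1, 0hr_2 or 0hr_4, DBA mouse 0hr_114 or C57 mouse 0hr_181, 1 higher without SMJ mouse 0hr_56 or 0hr_57, DBA mouse 0hr_115 or C57 mouse 0hr_180, and 1 lower without SJL mouse 0hr_1 or 0hr_4). In all 19.0% were called, and 7 of the 21 had a mean signal over 1000, where 22.2% of genes were called. Eif2s3y, a Y-linked translation factor gene, was lower in each SJL mouse (305, 236.7 and 340.2 in SJL against 466 to 690.1 (median 602) in the other 9; -0.995, adjusted p = 1.24e-06). The Y-linked Uty (-0.33) and Kdm5d (0.05) of the same list did not pass.

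**Figure D4:**
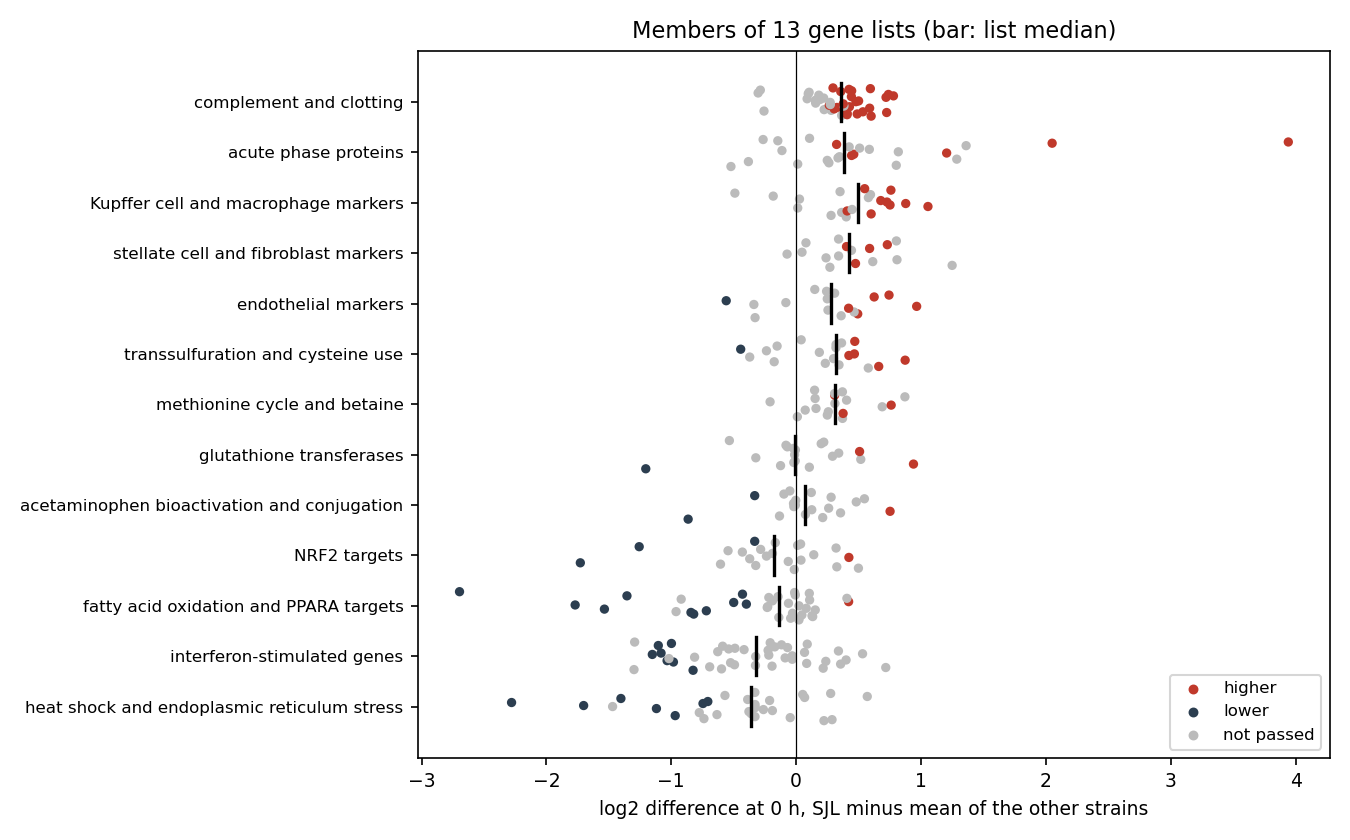
Log2 difference at 0 h, SJL minus the mean of the other strains, of each tested member of 13 gene lists, 1 point per gene; red and dark points passed as higher and lower, and bars mark list medians. Complement and clotting has 23 of 40 members higher and 0 lower, and heat shock and endoplasmic reticulum stress 7 of 29 lower and 0 higher.

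Most differences had the same sign in the other mice of the study, which had been dosed. At 3 h, where 17.5% of all genes differed between SJL and the mean of the others, 1364 of the 1689 genes (80.8%) had the sign they had at 0 h, 691 (40.9%) passed in the same direction and 47 in the opposite one, while 13.9% of the genes that did not differ at 0 h passed. At 6 h, where 10.9% of all genes differed, 1466 (86.8%) had the same sign, 651 (38.5%) passed in the same direction and 9 in the opposite one, against 7.07% of the other genes. In all, 434 genes (25.7%) passed in 1 direction at all 3 times, 220 higher and 214 lower, and so did 150 (56.2%) of the 267 that differed from all 3 strains. The change of the difference from 0 h passed for 240 of the 1689 genes at 3 h (14.2%), where it passed for 4.61% of all genes, and for 36 at 6 h (2.13%), where it passed for 0.393%. Of these, 205 and 34 moved against the sign of 0 h. The 1689 were chosen on the same 0 h values that the change subtracts, which favours movement towards 0, so nothing is read from these shares. In dosed mice a strain difference and a difference in response cannot be told apart.

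Among the members described above, Gstp3, Sdc4, Slc15a4, Fhit, Car5a, Slc26a1, Camk1d, Lbp, Gstk1 and Scarb1 passed as higher at all 3 times, and Dio1, Rarres1, Vnn1, Itih5, Ccdc122 and Ugt3a1 as lower. Hsd17b13 passed as lower at all 3 times on its brighter probe set, while its other probe set had the opposite sign each time. Gstk1 was higher by 0.76 at 3 h and 0.91 at 6 h, and Scarb1 by 0.76 and 0.48. Itih5 was lower by -2.75 and -2.81. The macrophage gene Clec4f had a difference of -0.0051 at 3 h (adjusted p = 0.988) and 0.53 at 6 h (adjusted p = 0.0241). Cd74 did not repeat, with 0.18 at 3 h (adjusted p = 0.769) and -0.28 at 6 h (adjusted p = 0.668). Hspb1 passed at 3 h (-1.64; adjusted p = 0.00244) and not at 6 h (-0.17; adjusted p = 0.841). Gnmt was 0.29 at 3 h, which did not pass (adjusted p = 0.154), and 0.44 at 6 h, which did (adjusted p = 0.0373).

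**Figure D5:**
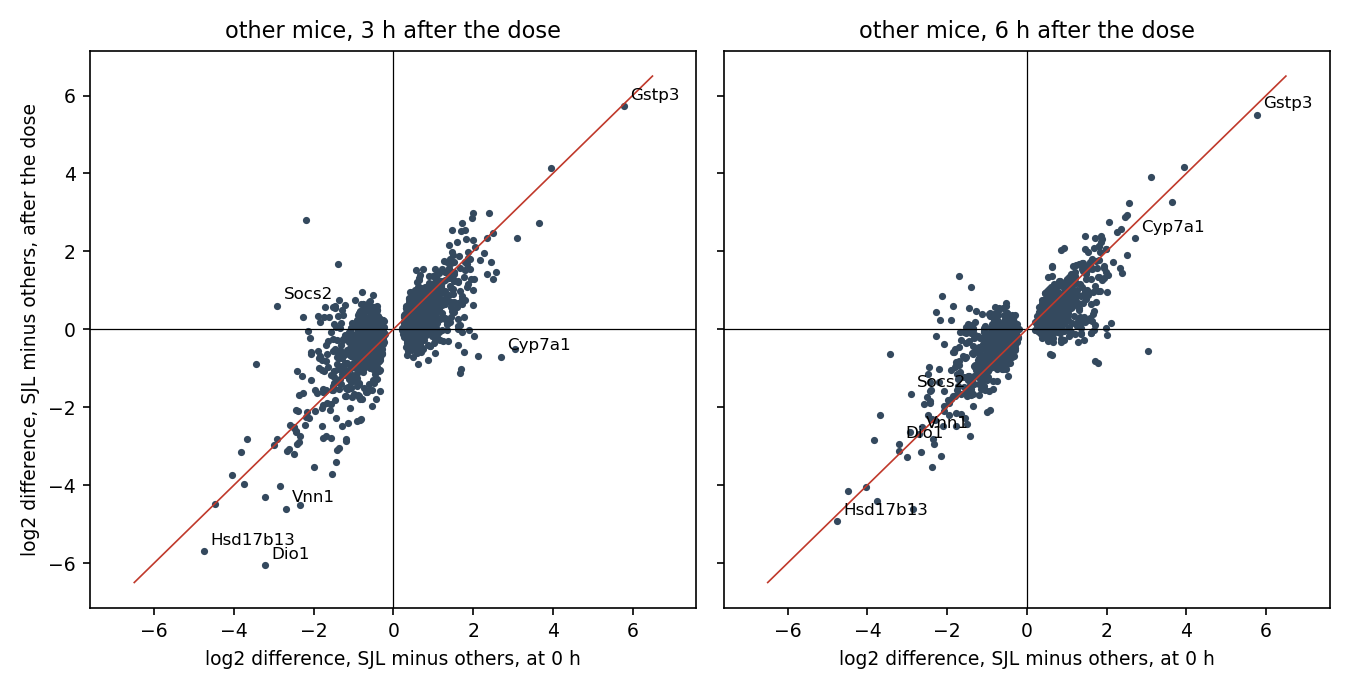
Log2 difference, SJL minus the mean of the other strains, of the 1689 genes that differed at 0 h, at 0 h (horizontal axis) against the same difference in other mice 3 h (left) and 6 h (right) after the dose; the red line marks equal values. 80.8% of the genes at 3 h and 86.8% at 6 h have the sign of 0 h; Gstp3 lies near the line at both times, Hsd17b13 lies below it at 3 h, and Socs2 and Cyp7a1 have the opposite sign at 3 h.

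In the RefSeq order of the genes tested, 238 of 1681 genes that differed (14.2%) had a next neighbour that differed too, where 12.1% of all genes did, and 145 of these pairs had 1 direction. Since 51.9% of the calls were higher, many pairs would have 1 direction without any link between neighbours, and nothing is read from the 145. Of 5063 probe sets not matched to exactly 1 gene, 136 were higher and 119 lower in SJL (5.04%).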

How the data were processed

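Liver RNA of 36 mice, 1 array each, was read on biotin-labelled Affymetrix arrays. The deposited values are MAS5 signals, per the submitters' processing notes, and the MAS5 version is not given in the sources used here: an intensity per probe set, on a linear scale, with every array at a mean of 150 after trimming 2% at each end. Of 45101 probe sets, 34945 matched 1 gene symbol in the platform annotation, updated by gene ID for 34741, while 932 matched several genes and 9160 none. Each gene was represented by its probe set with the highest mean signal, with names ending in _s_at or _x_at passed over where another existed, and 13981 of 18193 genes with at least 3 of 36 arrays above the median were tested.

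The fit was limma 3.58.1 (lmFit and eBayes, R 4.3.3) on log2 signals over 12 strain-by-time groups of all 36 arrays, which left 24 residual degrees of freedom, without covariates, since the labels name no batch. The script was tested on simulated data before use. The number of arrays limits the precision. Further probe sets were fitted and adjusted over 25330 probe sets. The genes named are the 15 largest differences each way among genes that passed with all 3 SJL arrays beyond every one of the other 9, the 10 largest each way with a further probe set passing in the same direction, up to 4 members of each of 35 gene lists, and Bhmt, Bhmt2, Cyp2e1, Gclc, Gclm, Hmox1, Nqo1 and Alb, 152 in all. Exceptions are Gstp1 and Gstp2, relatives of Gstp3, Xist, and 3 genes said to be chosen after their values were seen. Also named outside this rule are C1qa and C1qc, which lists share, and the further lower PPARA list members Cidec, Plin2, Pdk4, Acot1, Acot2 and Acot4. So are the endothelial markers Pecam1, Lyve1, Cd34 and Oit3 and the Y-linked Uty and Kdm5d. The members and the lists were chosen with earlier results of these data known. Promoter sequences are RefSeq's (GRCm38.p6). Alternatives were other offsets, filters, normalizations, probe set rules, spread settings, the 12 arrays at 0 h alone, and leaving out each 0 h mouse; 1, the brightest probe set whatever its name, was added after seeing the data.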

Additional observations from a re-analysis of the deposited data

Results flagged for a closer look

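The genes given here are those of the 152 named genes for which the difference between SJL and the mean of the other 3 strains changed after the dose, by limma's test of the change itself, 27 at 3 h and 4 at 6 h (Benjamini-Hochberg adjusted p over all genes of at most 0.0491 for each). A positive value means that SJL moved up against the others on the log2 scale, relative to 0 h. Nearly all named genes were chosen for their difference at 0 h, and the change subtracts the same 0 h values, so movement towards or past 0 is favoured by the choice. At 3 h 20 of the 27 moved against the sign of 0 h, and at 6 h all 4 did. The exceptions at 3 h, which moved with the sign of 0 h, were Dio1, Vnn1, Cyp4a31, Decr1, Eci1, Hsd17b13 and Ugt3a1. Single outlying mice were not tested for in these groups of 3.

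At 3 h, SJL moved up against the others in Socs2 (3.52), the inhibitor of growth hormone signalling, in the phosphatase gene Dusp8 (2.60), in Ugt2b37 (2.06), Maff (1.72), Klf6 (1.48), Bst2 (1.06), Hsp90aa1 (1.05) and Ugdh (0.58). Among the 27, it moved down by the largest amounts in Cyp7a1 (-3.41), Dio1 (-2.83), Ass1 (-2.72) and Vnn1 (-1.91), genes of bile acid synthesis, thyroid hormone activation, the urea cycle and pantetheine breakdown. The Ass1 value comes from a dim probe set, which read 37.1 to 187 in the other 9 mice at 0 h.

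Smaller downward changes at 3 h were found in Hlf (-1.25), Kdr (-1.14) and the Kupffer cell lectin Clec4f (-0.73), in Cyp4a31 (-1.02), Decr1 (-0.87) and Eci1 (-0.80) of fatty acid oxidation, and in Bhmt2 (-0.97) and Bhmt (-0.74), which remethylate homocysteine. Ugt3a1 (-0.84), Reln (-0.69) and Ldha (-0.48) also moved down, as did the apolipoprotein genes Apob (-0.70), Apon (-0.58) and Apof (-0.51). Hsd17b13 moved down (-0.94) on its brighter probe set, and its probe sets gave opposite answers at 0 h.

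At 6 h, SJL moved up in Dusp8 (2.72), in the heat shock genes Hsph1 (2.49) and Hsp90aa1 (1.52) and in Sox9 (1.61).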

How the results depend on the processing

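With 3 mice per strain, single mice decided many calls. Leaving out 1 mouse at 0 h at a time gave 494 to 892 genes higher in SJL at 0 h, 498 to 820 genes lower in SJL at 0 h, 164 to 235 that differed from all 3 strains, and 154 to 338 with a further probe set passing in the same direction and 9 to 26 in the opposite one. When only the 12 arrays at 0 h were fitted, those last counts were 213 and 14. Of the 146 named genes that passed, 99 kept the call whichever mouse was left out and 87 under every alternative. Over all alternatives, 3160 of 3342 values kept direction and side of the threshold, 176 lost the call and 6 turned sign: Reln -0.0074 as a mean over probe sets, Cyp2e1 -0.14 after quantile normalization and -0.019 to 0.26 over left-out mice (-0.019 without SJL mouse 0hr_2), Hmox1 -0.077 to 0.52 (-0.077 and -0.023 without SMJ mice 0hr_57 and 0hr_58), and Nqo1 -0.75 to 0.046 (0.046 without SJL mouse 0hr_4). The causes were not tested.

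The total of 1689 genes was 1661 without the offset, 1804 with an offset of 16, 1448 without the filter, 1825 with the filter on the 0 h arrays, 1791 after quantile normalization, 1663 after scaling to the 75th percentile, 1384 with the 12 arrays alone, of which 1142 were shared, 1829 with trended and robust spread, 1357 with probe sets averaged and 1740 with the brightest probe set, chosen after seeing the data. Higher genes were 51.9% of the calls, 50.1% after quantile normalization and 48.8% after scaling to the 75th percentile. Counts of further probe sets were not defined under other filters or probe set rules. Low signals limit the folds, since values near the offset carry little order. No paired analysis was possible because each mouse has its own number, which no other group shares.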
